A study of Homo sapiens with 8 samples.

Results

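The genes described here are the 8 genes PBX2, PBX3, PBX4, MEIS1, MEIS2, MEIS3, PKNOX1 and PKNOX2, which encode TALE homeodomain cofactors of Hox proteins. They were taken by name, and a ChIP-Seq peak was assigned to a gene when its summit lay in the gene body or within 50 kb of one of the gene's annotated transcription start sites (TSSs). By this rule 157 of the 223511 peaks in 4 lists belonged to the 8 genes, out of 20163 protein-coding genes to which the same rule was applied. All libraries came from PC-3, an established prostate cancer cell line. HoxC5 was immunoprecipitated from cells of control genotype in 2 replicates (endogenous HoxC5) and from cells overexpressing HoxC5 in 1 library, and Pbx4 was immunoprecipitated from cells overexpressing Pbx4 in 1 library. Both overexpressed proteins were Flag-tagged and delivered by lentivirus, and the antibodies were raised to HoxC5 or Pbx4, so tagged and native protein were not distinguished. There was no ChIP of Pbx4 without overexpression, and no ChIP of Meis or Pknox proteins.

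TALE proteins carry a homeodomain with a loop extended by extra amino acids. Pbx proteins pair with Hox proteins and sharpen their choice of DNA, while Meis proteins and Pknox proteins (also called Prep) bind Pbx and help to hold it in the nucleus. Pbx with Hox favours joined words such as TGATTGAT or TGATTAAT, and Meis and Pknox favour TGACAG. Pbx with Meis or Pknox favours TGA followed by a single base of any kind (N) and then that word, TGANTGACAG.

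The sequences printed first are words of the last kind at the starts of 4 of these genes, shown because each lay under a Pbx4 peak and because the Pbx4 peak of lowest q in the whole list was among them. Each line gives 30 bases of GRCh37 (hg19), read 5′ to 3′ on the strand that carries the word, with the match to TGANTGACAG in capitals. They lay at chr2:66662593-66662622 on the plus strand, chr15:37392132-37392161 on the minus strand, chr21:44394770-44394799 on the minus strand and chr11:125034668-125034697 on the minus strand, in the order printed.
MEIS1: acctcgcctgTGATTGACAGctggagtggc
MEIS2: ttccgggcttTGATTGACAGctggagtggc
PKNOX1: gcggagcggtTGAGTGACAGcttacctggg
PKNOX2: gacatggaaaTGAATGACAGcttacctgat

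All 4 words lay under a Pbx4 peak, with the summit 25 bp away at MEIS1, 3 bp at MEIS2, 36 bp at PKNOX1 and 24 bp at PKNOX2. The words of MEIS2, PKNOX1 and PKNOX2 also lay under an overexpressed HoxC5 peak, and that of MEIS1 did not. At MEIS1 and MEIS2 the word read along the coding strand of the gene and was part of an untranslated exon. At PKNOX1 and PKNOX2 it read along the opposite strand and stood in an intron, 5 bases from the nearest exon. Aligned on the word and without gaps, the windows of MEIS1 and MEIS2 shared 24 of 30 bases, and those of PKNOX1 and PKNOX2 shared 19. Mixed pairs, of a MEIS with a PKNOX gene, shared 15 to 17. These counts include the word by which the windows were chosen. In the 20 bases outside it, 14 were the same for the MEIS pair, 10 for the PKNOX pair and 6 to 8 for the mixed pairs. Over 100 bases centred on the word, 70 were the same between MEIS1 and MEIS2 and 37 between PKNOX1 and PKNOX2, while the mixed pairs shared 30 to 40. The extended word was searched for after peaks at these starts had been seen, so these sites are a description.

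The lists differed greatly in length, with 2525 peaks for endogenous replicate 1, 170 for replicate 2, 67196 for overexpressed HoxC5 and 153620 for overexpressed Pbx4. Their median fold enrichments, which compare the reads at a peak with the local background, were 4.98, 6.23, 6.17 and 6.36. The highest q kept was 0.0398, 0.0499, 0.00997 and 0.0490 in the same order, so the overexpressed HoxC5 list ended at a lower q than the others. Read totals are not part of the lists, so the depth of a single library is not known, and the study's methods state only an average range for all of them. With 1 library for each overexpressed protein and so few endogenous peaks, no test between conditions over samples was possible, and counts are given beside the same counts over all protein-coding genes.

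Every one of the 8 genes had at least 1 peak of overexpressed HoxC5 and at least 1 of overexpressed Pbx4, as did 87.8% and 93.0% of all protein-coding genes. The genes together held 55 HoxC5 peaks and 99 Pbx4 peaks, with 32 and 71 of the summits inside a gene body. Most of these were intronic, 28 for HoxC5 and 63 for Pbx4. For 15 of the 55 and 17 of the 99 peaks the closest TSS was that of another gene. The members' peaks had a median fold of 6.41 for HoxC5 and 6.84 for Pbx4. Peaks within 1 kb of a TSS were found at 6 of 8 genes for HoxC5 (54.9% of all genes) and at 5 of 8 for Pbx4 (41.9% of all genes), and PBX4 and MEIS3 had none in either list. Endogenous replicate 1 had a peak at 3 of the 8 genes (17.1% of all genes) and none within 1 kb of a TSS (3.38%). Replicate 2 had no peak at any of them, where 1.47% of all genes had one and 0.208% had one within 1 kb of a TSS.

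Read per length, the density of peaks at most of these genes was near that of an ordinary gene. The median over all protein-coding genes was 3.14 HoxC5 peaks and 5.97 Pbx4 peaks per 100 kb searched. PBX2, PBX3, PBX4, MEIS1, MEIS2 and PKNOX1 ranged from 3.33 to 4.87 for HoxC5 and from 6.67 to 9.04 for Pbx4, all above the median and below the upper quartiles of 5.62 and 9.37. MEIS3 was low in both lists, at 0.906 and 1.81 per 100 kb, and so was PKNOX2 for Pbx4, at 2.49. PKNOX2, at 1.56 for HoxC5, was below the median and above the lower quartile of 1.40. The same 6 genes were above the all-gene median in both lists, and both lists come from overexpressing cells of 1 line.

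**Figure D1:**
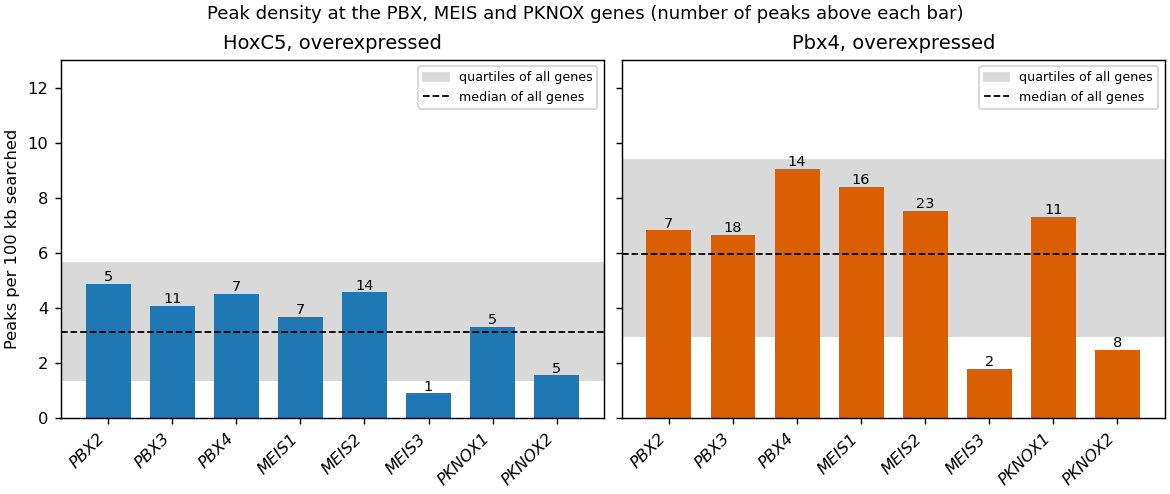
Bars give the peaks per 100 kb searched at each gene for overexpressed HoxC5 (left) and overexpressed Pbx4 (right), with the number of peaks above each bar, the dashed line marks the median and the grey band the quartiles over all protein-coding genes. MEIS3 had 0.906 and 1.81 peaks per 100 kb and PBX4 had 4.52 and 9.04, and 6 of the 8 genes stood above the dashed line in both panels.

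The PBX genes differed in where their peaks lay. PBX2 (chr6:32152510-32157979, minus strand) is a short gene of 5.47 kb in a gene-dense region, and no summit fell inside it. Its 5 HoxC5 peaks included 1 at its own start, 140 bp upstream of a TSS, with a fold of 5.66. The strongest HoxC5 peak, with a fold of 7.21, and the strongest Pbx4 peak, with a fold of 14.8, were 9345 and 11355 bp from a PBX2 TSS but 74 and 76 bp from a TSS of the neighbouring gene AGPAT1. Pbx4 had 7 peaks around PBX2, and the one nearest to a PBX2 TSS was 8021 bp away.

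PBX3 (chr9:128509624-128729656, plus strand) had 11 HoxC5 and 18 Pbx4 peaks, of which 7 and 16 were in the gene and all of those in introns. At its main start HoxC5 gave a fold of 6.41 at 693 bp upstream, and Pbx4 gave a fold of 4.49 at 636 bp upstream in an overlapping peak. A further Pbx4 peak with a fold of 5.59 was 21 bp from another PBX3 TSS. The highest HoxC5 fold, 12.3, was in an intron at chr9:128668514-128668743, where Pbx4 gave 8.58. The highest Pbx4 fold, 12.6, was also intronic, at chr9:128577881-128578156, where HoxC5 gave 7.37.

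PBX4 (chr19:19672516-19729502, minus strand) had 7 HoxC5 and 14 Pbx4 peaks. The HoxC5 peaks were mostly away from the gene, with 2 summits inside it, while 13 of the 14 Pbx4 summits were inside. Its highest HoxC5 fold, 8.83, was at the start of NDUFA13, a gene for a subunit of respiratory complex I, 47650 bp from the closest PBX4 TSS. Its highest Pbx4 fold, 20.0, was in an intron of PBX4 at chr19:19716774-19717313 and ranked 1067 of 153620 by fold. HoxC5 had a peak with a fold of 5.11 over the same place. The 101 bases of GRCh37 around the Pbx4 summit, at chr19:19717000-19717100 on the plus strand, are shown with a TGACAG word in capitals because this was the strongest peak within the gene of the overexpressed factor itself.
PBX4 intron: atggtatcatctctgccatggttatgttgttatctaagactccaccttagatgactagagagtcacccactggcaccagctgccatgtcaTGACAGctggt

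MEIS1 (chr2:66660584-66801001, plus strand) and MEIS2 (chr15:37181405-37393500, minus strand) had the most TSSs of the 8 genes, 17 and 36, so more of their length counted as near a start. All 7 HoxC5 peaks of MEIS1 were in the gene, and 4 were within 1 kb of a TSS with folds of 7.28, 5.50, 6.30 and 4.21. Of its 16 Pbx4 peaks, 3 were within 1 kb of a TSS, with folds of 4.68, 12.2 and 14.5. The last of these was the strongest Pbx4 peak at MEIS1 and lay 711 bp from an internal TSS in an intron, where HoxC5 had no peak. The Pbx4 peak over the printed MEIS1 word was the weakest of the 3, with a fold of 4.68 that was below the median of the whole list.

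MEIS2 had the most peaks, 14 of HoxC5 and 23 of Pbx4. Within 1 kb of a TSS it had 5 HoxC5 peaks with folds of 8.53, 4.41, 9.54, 5.50 and 6.63, and 7 Pbx4 peaks with folds of 3.0, 6.42, 3.83, 3.81, 17.0, 3.85 and 5.55. The folds of 9.54 and 17.0 belonged to the overlapping peaks over the printed MEIS2 word, and the latter was the highest Pbx4 fold at the gene. The highest HoxC5 fold, 14.8, was in an intron 22610 bp from the nearest TSS, at chr15:37243969-37244511. With a −log10 q of 77.2 it ranked 390 of 67196, the highest rank of any HoxC5 peak at the 8 genes, and Pbx4 gave a fold of 10.5 there. The bases around this HoxC5 summit, chr15:37244201-37244301 on the plus strand of GRCh37, are printed with the word in capitals, which reads TGACAG on the minus strand.
MEIS2 intron: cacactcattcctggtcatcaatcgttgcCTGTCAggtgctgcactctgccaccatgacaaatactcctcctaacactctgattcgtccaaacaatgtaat

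MEIS3 (chr19:47906381-47922784, minus strand) had the fewest peaks and none inside the gene. HoxC5 gave 1 peak, with a fold of 6.62, at 8813 bp upstream of a TSS. Pbx4 gave a peak with a fold of 9.47 over the same place and a second peak with a fold of 4.00 at 13960 bp upstream. The TSS closest to all 3 summits was that of the neighbouring gene SLC8A2, which encodes a sodium and calcium exchanger.

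PKNOX1 (chr21:44394620-44454041, plus strand) held the peak with the lowest q value of the whole Pbx4 list. This peak, at chr21:44394555-44394973, had its summit 23 bp from a TSS, a fold of 44.4 and a −log10 q of 193, and ranked 1 of 153620 by q and 2 by fold. HoxC5 had a peak with a fold of 10.5 over it, the highest HoxC5 fold at PKNOX1, with the summit 6 bp from a TSS. The other 2 HoxC5 peaks near a PKNOX1 TSS had folds of 4.89 and 3.38. The remaining 10 Pbx4 peaks had folds from 4.67 to 12.2, so the peak at the start stood well above the others of the gene.

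PKNOX2 (chr11:125034583-125303285, plus strand) had 5 HoxC5 and 8 Pbx4 peaks. At its start Pbx4 gave a fold of 15.5 with a summit 9 bp from a TSS, and HoxC5 gave a fold of 5.26 with a summit 2 bp from another TSS. The highest folds of the gene were intronic and did not overlap, 16.1 for Pbx4 at chr11:125170655-125171124 and 12.9 for HoxC5 at chr11:125215729-125215895. Its other HoxC5 peaks had folds of 4.77, 8.08 and 9.48.

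**Figure D2:**
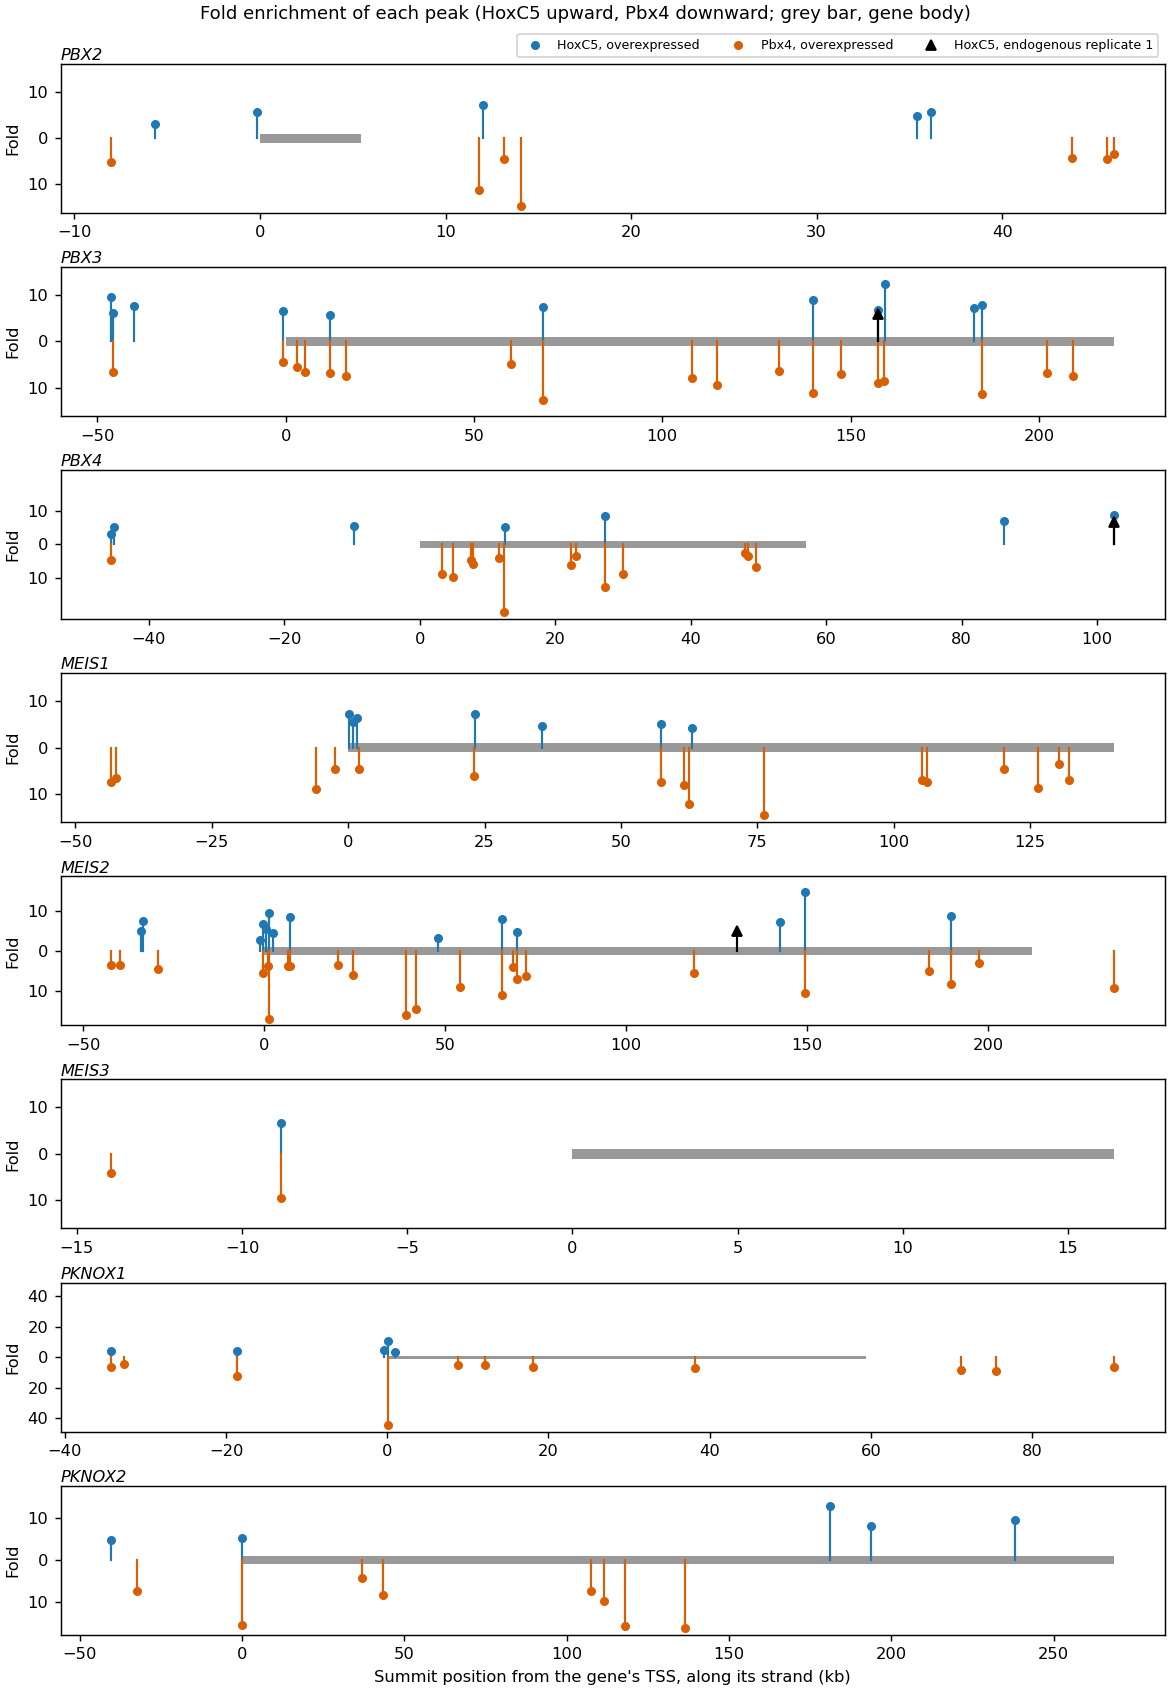
Each panel is 1 gene, with the position of each peak summit from the gene's TSS in kb along the x axis and its fold enrichment on the y axis, HoxC5 upward (overexpressed in blue, endogenous replicate 1 as black triangles) and Pbx4 downward (orange), the gene body as a grey bar. The Pbx4 peak at the start of PKNOX1 has a fold of 44.4, and MEIS3 has no peak within its body.

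Endogenous HoxC5 replicate 1 had 3 peaks at these genes and replicate 2 had none, so none was seen in both replicates. Over the whole list of replicate 1, 5.35% of peaks overlapped one of replicate 2, 76.4% one of overexpressed HoxC5 and 70.8% one of overexpressed Pbx4. The first share is bounded by the 170 peaks of replicate 2, of which 135 (79.4%) overlapped one of replicate 1. The peak in an intron of PBX3, at chr9:128666701-128666909, had a fold of 5.78 and overlapped peaks of both overexpressed proteins, whose summits were 48 bp (HoxC5) and 33 bp (Pbx4) away. The peak assigned to PBX4, at chr19:19626925-19627077, had a fold of 6.51 and was 63 bp from a TSS of NDUFA13. It overlapped an overexpressed HoxC5 peak with a summit 12 bp away, and the nearest Pbx4 summit was 26.7 kb away. The peak in an intron of MEIS2, at chr15:37262787-37262993, had a fold of 5.08 and overlapped no peak of the overexpressed proteins, whose nearest summits were 11.9 kb (HoxC5) and 12.0 kb (Pbx4) away. These 3 peaks ranked 1405, 691 and 1524 of 2525 by q. The 101 bases around the summits of the intronic endogenous peaks, at chr9:128666756-128666856 and chr15:37262818-37262918 on the plus strand of GRCh37, are printed to show the endogenous sites in these genes, and none of the words searched was in them.
PBX3 intron, endogenous: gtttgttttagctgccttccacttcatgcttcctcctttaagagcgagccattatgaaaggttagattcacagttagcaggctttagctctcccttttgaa
MEIS2 intron, endogenous: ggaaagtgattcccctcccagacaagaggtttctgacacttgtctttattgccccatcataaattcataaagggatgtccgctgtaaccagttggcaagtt

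HoxC5 and Pbx4 shared 29 places at the 8 genes, counted as overlaps of at least 1 bp. They made up 52.7% of the 55 HoxC5 peaks (exact 95% interval 38.8 to 66.3%), against 67.7% of the whole HoxC5 list. They made up 29.3% of the 99 Pbx4 peaks (20.6 to 39.3%), against 28.5% of the whole Pbx4 list. Summits of a pair were 53.0 bp apart at the median, with a range of 6 to 431 bp, and 22 of 29 were within 100 bp. PBX3 and MEIS2 held 8 pairs each, MEIS1 held 4, PBX4 and PKNOX1 held 3 each, and PBX2, MEIS3 and PKNOX2 held 1 each. Within 1 kb of the TSS of any gene, 11 of the 24 HoxC5 peaks overlapped Pbx4 (45.8%, interval 25.6 to 67.2%), against 40.6% for such peaks of the whole list. Farther away 18 of 31 overlapped (58.1%, interval 39.1 to 75.5%), against 75.8%.

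Shared peaks had the higher folds in both lists, as they did over each whole list. The median fold of Pbx4 peaks was 9.0 where HoxC5 overlapped and 6.48 where it did not, beside 8.23 and 5.89 over the whole list. For HoxC5 the medians were 6.63 and 5.58, beside 6.61 and 5.63. In 20 of the 29 pairs the Pbx4 fold was the higher number, although the 2 lists were made separately and their folds have no common scale. The pairs farthest from equal folds included the starts of PKNOX1 and PKNOX2 and the intron of PBX4 described above.

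**Figure D3:**
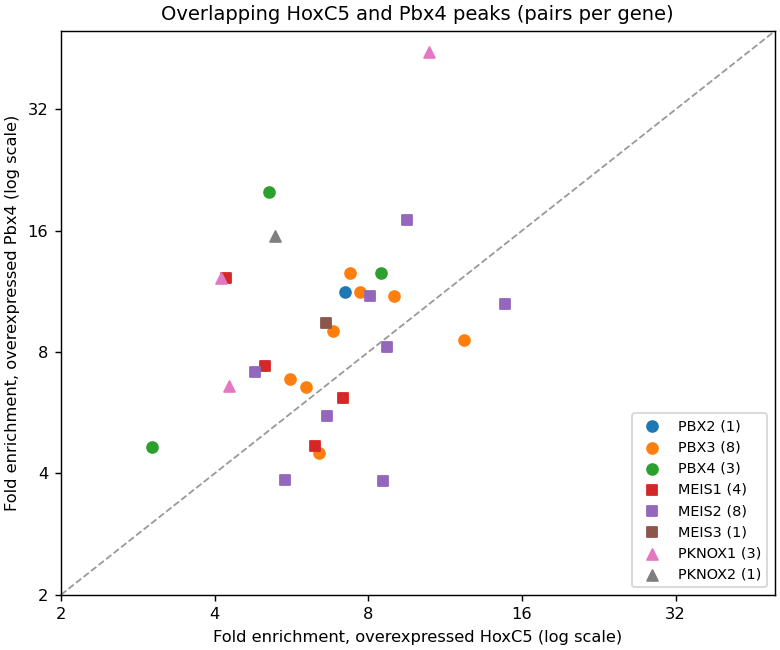
Each point is 1 of the 29 overlapping peak pairs, placed by its fold enrichment in the overexpressed HoxC5 list (x axis, log scale) and in the overexpressed Pbx4 list (y axis, log scale), with the gene given by colour and shape and the dashed line marking equal values. The pair at the PKNOX1 start, at 10.5 and 44.4, is the highest point, and 20 of 29 points lie above the line.

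The Pbx4 peaks within PBX4 were set against its exons, since a construct made from spliced PBX4 coding sequence would hold coding exons and no introns. Of the 13 Pbx4 summits in the gene, 11 were in introns, with folds of 3.31, 3.94, 4.64, 5.90, 6.06, 6.56, 8.58, 8.77, 9.73, 12.6 and 20.0. The other 2 were in coding exons, with folds of 2.50 and 3.41, the lowest and the third lowest of the 13. The sequence that the construct carried is not given in the sources used here.

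The coding exon peaks fell on exon 3 (248 bp) and exon 4 (191 bp), the longest of the 8 coding exons. The peak at chr19:19681476-19681644 ended 2 bp from an end of exon 3, and the peak at chr19:19680917-19681138 began 1 bp from an end of exon 4 and covered all of it. Of 5301 Pbx4 peaks over coding exons of any protein-coding gene, 182 (3.43%) had an edge within 3 bp of that of the exon. The other 6 coding exons of PBX4 had no peak, and none of the 3 HoxC5 lists had a peak on any of the 8. The overexpressed HoxC5 list ended at a q of 0.00997, and the exon 3 peak, with a −log10 q of 1.98, was weaker than that limit. Its absence from that list is therefore not a like comparison, while the exon 4 peak (−log10 q of 2.92) was within the limit. In the Pbx4 list, 31.9% of the coding bases of PBX4 and 7.10% of its intronic bases were under a peak. Among the other 7 genes the share of coding bases under a Pbx4 peak was 4.50% at PBX3 and 0 at the rest, and no coding exon of theirs held a summit of any list. Whether the 2 coding exon peaks of PBX4 came from the construct was not tested. They are counted in the Pbx4 values given here, and without them the 8 genes had 97 Pbx4 peaks and PBX4 had 12, or 7.75 per 100 kb, and 29.9% of the 97 overlapped HoxC5.

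**Figure D4:**
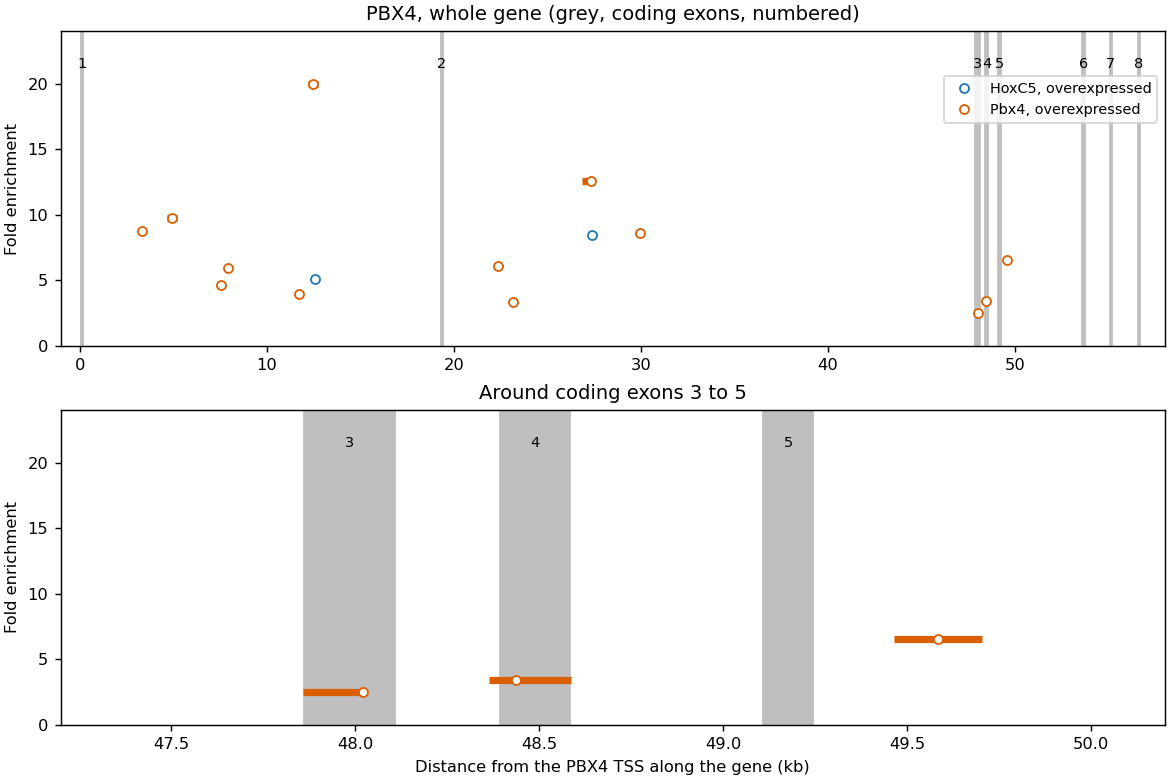
Fold enrichment of the peaks in the PBX4 gene (y axis) against the distance from its TSS in kb (x axis), over the whole gene above and around coding exons 3 to 5 below, with bars for the peak intervals, circles for the summits (blue HoxC5, orange Pbx4, both overexpressed) and coding exons in grey with their numbers. Peaks with folds of 2.50 and 3.41 lie on exons 3 and 4, and the 11 others of Pbx4 have summits in introns.

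Words were searched on both strands within 50 bp of each summit. TGACAG, the Meis and Pknox word, was in 9 of the 55 HoxC5 peaks (16.4%, interval 7.77 to 28.8%) and 17 of the 99 Pbx4 peaks (17.2%, interval 10.3 to 26.1%), against 7.88% and 10.4% of the whole lists. The extended word TGANTGACAG, whose matches are counted in TGACAG as well, was in 2 HoxC5 peaks (3.64%, interval 0.443 to 12.5%) and 5 Pbx4 peaks (5.05%, interval 1.66 to 11.4%), against 0.226% and 0.488%. The 5 Pbx4 peaks were those at the starts of MEIS1, MEIS2, PKNOX1 and PKNOX2 and 1 in an intron of MEIS2. The 2 HoxC5 peaks were both at MEIS2, at the same start and intronic site, and overlapped the Pbx4 peaks there. The extended word was chosen after peaks at these starts had been seen, so its shares and intervals are a description only. Among the 500 Pbx4 peaks of lowest q in the whole list, 1.60% held it.

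The joined Hox and Pbx words TGATTGAT and TGATTAAT were in 0 of the 55 and 0 of the 99 peaks, which allows shares of up to 5.45% and 3.03% by a limit of 3 counts and up to 6.49% and 3.66% by the exact 95% interval, and over the whole lists they were in 0.469 to 0.807% of peaks. AP-1 words (TGAGTCA or TGACTCA), sites of the Fos and Jun factors, were in 6 HoxC5 peaks (10.9%, interval 4.11 to 22.2%) and 10 Pbx4 peaks (10.1%, interval 4.95 to 17.8%), against 20.5% and 18.5%. Of the homeodomain words, TAATTA was in 1 peak of each list, and TAATGA was in 3 HoxC5 peaks (5.45%, against 8.41%) and 11 Pbx4 peaks (11.1%, against 7.61%). The intervals cover counting error only.

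Most copies of the extended word at these genes lay under no peak. Of 43 copies in the searched regions, 7 were under a Pbx4 peak and 4 under an overexpressed HoxC5 peak, beside 3.52% and 0.822% of 49298 copies in the genome, and none was under an endogenous peak. Within 1 kb of a TSS of the 8 genes there were 8 copies, and the 4 printed above were those under a Pbx4 peak, with 3 under HoxC5. Among 2158 copies within 1 kb of a TSS of any protein-coding gene, 12.2% were under a Pbx4 peak and 5.79% under an overexpressed HoxC5 peak. The form TGATTGACAG, as at MEIS1 and MEIS2, was under a Pbx4 peak at 22.3% of its 287 copies near a TSS, and the forms of PKNOX1 and PKNOX2, TGAGTGACAG and TGAATGACAG, at 10.8% of 1011 and 7.81% of 448. The remaining 4 copies were at PBX2, MEIS3 and 2 internal starts of PKNOX1, and the nearest Pbx4 summit was 8356 to 20196 bp away from them. The word stood within 1 kb of a TSS in 6 of the 8 genes and in 9.93% of all protein-coding genes. Because it was chosen after the peaks were seen, these counts are a description as well.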

How the data were processed

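Peaks of 4 ChIP libraries from PC-3 cells were used, while their 4 input libraries were not analysed here. Mapping to hg19 by the authors used BWA, followed by a mapping quality filter, removal of duplicates and peak calling with MACS2 on each library. The version of MACS2 and the control of each call are not given in the sources used here. The deposited values are fold enrichment (a ratio), significance as −log10 of p and of q, and a score computed from q by MACS2. The methods give an average depth range for the libraries, and the depth of a single library is unknown.

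Summits were compared with GENCODE 44 (GRCh37) in Python (version 3.11.15), using pysam 0.24.0, scipy 1.17.1, pandas 2.3.3 and numpy 2.4.6. Genes were protein-coding genes of the main chromosomes, all TSSs counted, and sequences came from GRCh37. Shares have exact Clopper-Pearson 95% intervals. Counting, overlap and word search were tested on simulated data, and recovered 4000 of 4000 gene counts, 10303 of 10303 overlaps and 2000 of 2000 words. Named items were the 8 genes, every endogenous peak, every peak within 1 kb of a TSS, the highest fold per gene and list, every peak in PBX4, and of other TALE genes those with an endogenous peak and the extremes in density. The genes, words and lists were chosen with earlier results of these data known, and TGANTGACAG and the comparison of exon edges were added after the peaks were seen. Whether the 2 endogenous replicates are separate cultures is not stated.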

Additional observations from a re-analysis of the deposited data

How the results depend on the processing

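Of 103 recomputed values of the main results, 86 stayed within 1.5 times the reported count or within the interval of the reported share, and 17 did not. A value of 0 that stayed 0 was scored as unchanged, which covers every recomputed count of the endogenous replicate 2 list. All 3 endogenous peaks came from replicate 1, so endogenous peaks and genes with one ranged from 0 to 3 when a replicate was left out, and a −log10 q of at least 5 left 1 peak at 1 gene. Counting gene bodies alone left 32 HoxC5 peaks. Cutting the Pbx4 list to the length of the HoxC5 list left 46 Pbx4 peaks, of which 45.7% overlapped HoxC5 (45.1% of the whole cut list), and 38.2% of HoxC5 peaks then overlapped Pbx4 (47.7%). With an overlap of at least 50% of both peaks the shares were 34.5% of HoxC5 peaks (37.2% of the whole list) and 19.2% of Pbx4 peaks (16.3%). The share of PBX4 exon bases under a Pbx4 peak was 16.8% over all exons and 31.9% over coding exons. Within 25 bp of the summit, TAATGA and TAATTA were in 0% of HoxC5 peaks, and Pbx4 peaks held TGACAG at 8.08% (5.55% of the whole list), TAATGA at 4.04% and TAATTA at 0%. Within 100 bp, AP-1 words were in 20.2% of Pbx4 peaks (29.1%). TGANTGACAG was in 2.02 to 5.05% of Pbx4 peaks over the windows of 25 to 100 bp, added after the data were seen. Within 100 bp, the order against the whole list turned for TAATGA in Pbx4 peaks (13.1% against 14.6%), for TGATTGAT in Pbx4 peaks (1.01% against 0.839%) and for TAATTA in HoxC5 peaks (5.45% against 4.45%), and on the cut list the Pbx4 peaks (46) were fewer than the HoxC5 peaks (55). Counts for single genes stayed within 1.5 times in 155 of 200 comparisons. These too include 0 against 0, for all genes in endogenous replicate 2 and for genes without a peak in replicate 1, so the share overstates the stability of counts above 0. No paired analysis was possible because the replicate numbers are shared by ChIP and input libraries, the inputs have no peak list, and no test was run. The lists show no depth, and their lengths and highest q differ, so counts of peaks are not compared between lists as binding.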

Other observations

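The other TALE homeobox genes, read by the same rule, had peaks at fewer genes. Of TGIF1, TGIF2, MKX and the 6 Iroquois genes IRX1 to IRX6, 4 of 9 had a HoxC5 peak and 5 of 9 a Pbx4 peak in the overexpressing cells, beside 87.8% and 93.0% of all protein-coding genes. They held 26 HoxC5 peaks and 47 Pbx4 peaks, and 3 and 1 of the 9 had a peak within 1 kb of a TSS. TGIF1, which encodes a repressor acting on the TGF-β pathway, held most of them, with 18 HoxC5 and 28 Pbx4 peaks. Its 12.5 and 19.5 peaks per 100 kb were at percentiles 97.8 and 98.4 of all genes, and no PBX, MEIS or PKNOX gene was above percentile 67.9 for HoxC5 or 73.6 for Pbx4. IRX1, IRX3, IRX5 and IRX6, patterning factors that lie in gene clusters, had no peak in either list. Endogenous replicate 1 had 1 peak at TGIF1 (fold 3.89) and 1 at TGIF2 (fold 4.27), and replicate 2 had none at any of the 9.

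RefSeq promoters of 300 bases (GRCh38.p14) were matched for 7 of the 8 PBX, MEIS and PKNOX genes, and none of the 7 held TGANTGACAG, which was in 0.757% of 35116 promoters. The words printed above were instead found within 1 kb of any annotated TSS on GRCh37. The searches therefore did not cover the same sequence, and this count does not bear on the printed words.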
